A study of Homo sapiens with 2 samples.

Results

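The genes described here are the 37 histone lysine methyltransferase and demethylase genes of a prepared list. The list was made with earlier results of these data known. What is described is where peaks of methylated ERG (mERG) fell on these genes. A peak was taken as belonging to a gene when the deposited peak list named that gene, and a gene named by no peak counted as having no peak detected. Of 18070 peaks, which carry 5011 different gene names, 206 were named for 23 of the 37 genes. The list holds 22 methyltransferase genes, called writers below, and 15 demethylase genes, called erasers. The writers include KMT2E, whose product is thought to lack methyltransferase activity, in all counts below. WHSC1L1 appears in the peak list under its current symbol NSD3, and WHSC1 is now NSD2; genes were matched by their identifiers, and with the listed symbols alone 22 of the 37 would have been found.

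The peaks come from chromatin immunoprecipitation and sequencing in VCaP, an established line of prostate cancer cells in which the TMPRSS2-ERG fusion drives the transcription factor ERG. The antibody was made against ERG methylated on a lysine. There was 1 mERG library and 1 control library, whose labels name both input and IgG, with no replicate, so no value below can be set against a replicate error. Read depth is unknown, and the 95% intervals given cover counting error only. Intervals over peaks also treat the peaks of a gene as independent, and so are too narrow where few genes hold many peaks.

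Methyl groups on the lysines of histones are placed by writers, most of which share a catalytic SET domain, and removed by erasers, which use either flavin or a JmjC domain with iron. Methylation of lysine 4 of histone H3 (H3K4) is typical of promoters and enhancers, that of H3K36 of the bodies of transcribed genes, and that of H3K9 and H3K27 of silenced chromatin. ERG belongs to the ETS family of transcription factors, which bind DNA at sites built around the letters GGAA.

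The sequences at the centres of the strongest peaks of 2 writers and 2 erasers show the DNA on which the highest-scoring peak of each gene was centred. Each is the 201 bp around the peak centre on the plus strand of hg19, read from the GRCh37 reference genome rather than from reads of these cells, with GGAA and its reverse complement TTCC in capitals. The SETD2 window is chr3:47180658-47180858 in intron 1, and the KMT2E window chr7:104768995-104769195, which lies in intron 14 of the neighbouring gene SRPK2. The KDM3B window is chr5:137704923-137705123 in intron 1, and the KDM3A window chr2:86676433-86676633 in intron 2.
SETD2: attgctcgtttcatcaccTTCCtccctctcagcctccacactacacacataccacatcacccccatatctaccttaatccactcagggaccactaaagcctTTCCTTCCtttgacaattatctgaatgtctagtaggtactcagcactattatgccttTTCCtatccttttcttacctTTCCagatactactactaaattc
KMT2E: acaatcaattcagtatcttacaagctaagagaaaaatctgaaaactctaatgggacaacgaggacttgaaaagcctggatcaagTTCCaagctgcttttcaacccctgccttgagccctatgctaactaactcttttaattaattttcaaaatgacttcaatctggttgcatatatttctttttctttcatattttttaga
KDM3B: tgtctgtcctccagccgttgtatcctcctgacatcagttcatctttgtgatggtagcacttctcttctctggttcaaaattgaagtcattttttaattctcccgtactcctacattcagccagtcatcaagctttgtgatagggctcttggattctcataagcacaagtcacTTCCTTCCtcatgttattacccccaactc
KDM3A: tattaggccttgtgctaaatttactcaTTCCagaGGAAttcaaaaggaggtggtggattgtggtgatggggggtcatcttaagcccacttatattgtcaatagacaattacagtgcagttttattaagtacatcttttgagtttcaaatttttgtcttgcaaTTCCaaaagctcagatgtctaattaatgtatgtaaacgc
The windows shown do not stand for all peaks of these genes, and the share of windows with GGAA on either strand over all 206 peaks was 77.7%. The strongest peaks of WHSC1L1 and KDM2A, the highest-scoring writer and eraser, are not among them. The windows shown therefore cannot tell how often the strongest peaks hold GGAA.

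At least 1 peak was named for 23 of the 37 genes (62.2%, Wilson 95% interval 46.1 to 75.9%), against 4088 of 20037 protein-coding genes (20.4%). The 37 genes were listed with earlier results of these data known, so this contrast is not independent of the choice. Writers were bound in 15 of 22 cases (68.2%, 47.3 to 83.6%) and erasers in 8 of 15 (53.3%, 30.1 to 75.2%). The difference of 14.8 percentage points had a Newcombe interval of -15.4 to 42.7, so that the shares of writers and erasers did not differ beyond counting error. At least 10 peaks were named for 7 of the 37 genes (18.9%), against 1.71% of protein-coding genes, and 6 of those 7 were writers. The shares were 27.3% of writers (13.2 to 48.2%) and 6.67% of erasers (1.19 to 29.8%), with intervals that overlap. A peak with a score of at least 100 was found at 4 of the 37 (10.8%), against 0.898%. Of these 4 genes, 2 were writers and 2 erasers. The score, deposited by the authors, is the log10 p-value of the MACS peak caller multiplied by -10, and ranks peaks only within this list.

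These genes are long, and long genes were bound more often. Their median length was 109.3 kb, against 27.4 kb for other protein-coding genes. When the bound share of other genes was averaged over the length deciles in which the 37 genes fall, it was 32.7%, which lies above 20.4% and below the 62.2% of the enzyme genes. The same average was 31.4% for the writers and 34.6% for the erasers. Averaged in this way, 3.77% of other genes had at least 10 peaks and 1.68% had a score of at least 100, again above the shares of all protein-coding genes and below the 18.9% and 10.8% of the enzyme genes. In the decile of the longest genes, 8 of 10 enzyme genes were bound, against 35.5% of the others. Within the list, length and number of peaks were weakly related across genes (Spearman rho 0.376 over 37 genes that share 1 library), and the median length was 75.9 kb in genes without a peak and 112.6 kb in genes with at least 1.

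Among the writers of H3K4, all 3 genes were bound, with 61 peaks between them. KMT2C, a methyltransferase that acts at enhancers, had 46 peaks, the 7th highest number among the 4088 bound protein-coding genes. Its scores ran from 33 to 96.0 with a median of 45.4, and by its highest score it ranked 204th. All 46 lay in introns, 23 of them in intron 1, between 4.18 and 200.7 kb from the transcription start site (TSS), and the strongest was in intron 1. A further 7 peaks toward the end of KMT2C were named for its neighbour GALNT11. KMT2A, the MLL gene that is rearranged in leukemia, had 14 peaks with scores of 33.4 to 82.6 and a median of 40.5. Of these, 11 lay in intron 1, the strongest at chr11:118325247-118325930. SETD7, which also methylates proteins other than histones, had 1 peak, with a score of 39.0, in intron 1.

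The writers of H3K36 were bound in 3 of 5 cases, with 39 peaks. WHSC1L1, which dimethylates H3K36, had 19, which were strong and wide: the scores ran from 33.1 to 203.2 with a median of 61.5, and 11 of the 19 were at least 1 kb wide. Its strongest peak, chr8:38195857-38199556, lay in intron 2 and ranked the gene 28th by score among bound protein-coding genes. Another 9 peaks within WHSC1L1 were named for PLPP5, with scores of 34.3 to 62.0 and widths of 266 to 1493 bp. SETD2, the enzyme that trimethylates H3K36 behind elongating RNA polymerase II, had 17 peaks with scores of 34.0 to 100.7 and a median of 46.6. Intron 1 held 11 of them, including the strongest, chr3:47180226-47181290. Another 9 peaks within SETD2 were named for NRADDP. NSD1, mutated in Sotos syndrome, had 3 peaks with scores of 33.6, 40.6 and 45.7, all in intron 3, and 9 more in its body that were named for RAB24.

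ASH1L, which also methylates H3K36, was named by no peak although 7 peaks lay in its introns. The list gave 5 of these to ASH1L-AS1, 1 to MIR555 and 1 to POU5F1P4, whose start sites are closer. Their scores ran from 33 to 55.3 with a median of 44.5, a range that overlaps the scores of SETD2 and KMT2C, and 4 of the 7 lay in intron 1. WHSC1 had no peak under either count. DOT1L, the writer of H3K79, also had none, and 1 peak lay within 1 Mb on either side of it.

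Of the 7 writers of H3K9, 4 were bound, with 20 peaks. EHMT1, which works as a dimer with EHMT2, had 13 of these, with scores of 33.4 to 60.9 and a median of 40.2. Intron 1 held 11, the strongest at chr9:140532940-140533542. EHMT2 itself had none. PRDM2, a tumor suppressor with a SET-related PR domain, had 4 weak peaks with scores of 33.4 to 46.0, of which 3 lay in intron 8. SETDB1 had 2 peaks, both in intron 3, with scores of 36.1 and 39.8. The single peak of SUV39H2 had a score of 35.0 and lay outside the gene, in DCLRE1C, while SUV39H1 and SETDB2 had no peak.

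Of the 6 other SET genes, 5 were bound, with 36 peaks. KMT2E, whose product is thought to lack methyltransferase activity, had 19 peaks with scores of 35.3 to 83.2 and a median of 42.2. Only 14 of the 19 lay within KMT2E, and the other 5, among them the strongest at chr7:104768589-104769602, lay in SRPK2. SETD5 had 8 peaks with scores of 33.1 to 69.5 and a median of 50.0, and all 8 lay in intron 1, within 17.4 kb of the TSS. SMYD3, at 758.0 kb the longest of the 37 genes, had 6 peaks, 5 of them in intron 5, or 0.792 per 100 kb. SETMAR, a SET domain fused to a transposase, had 2 peaks, 1 of them between genes or in SUMF1 depending on the annotation. The peak named for SMYD2 lay 124.1 kb from its TSS, in PTPN14, and SETD3 had none.

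**Figure D1:**
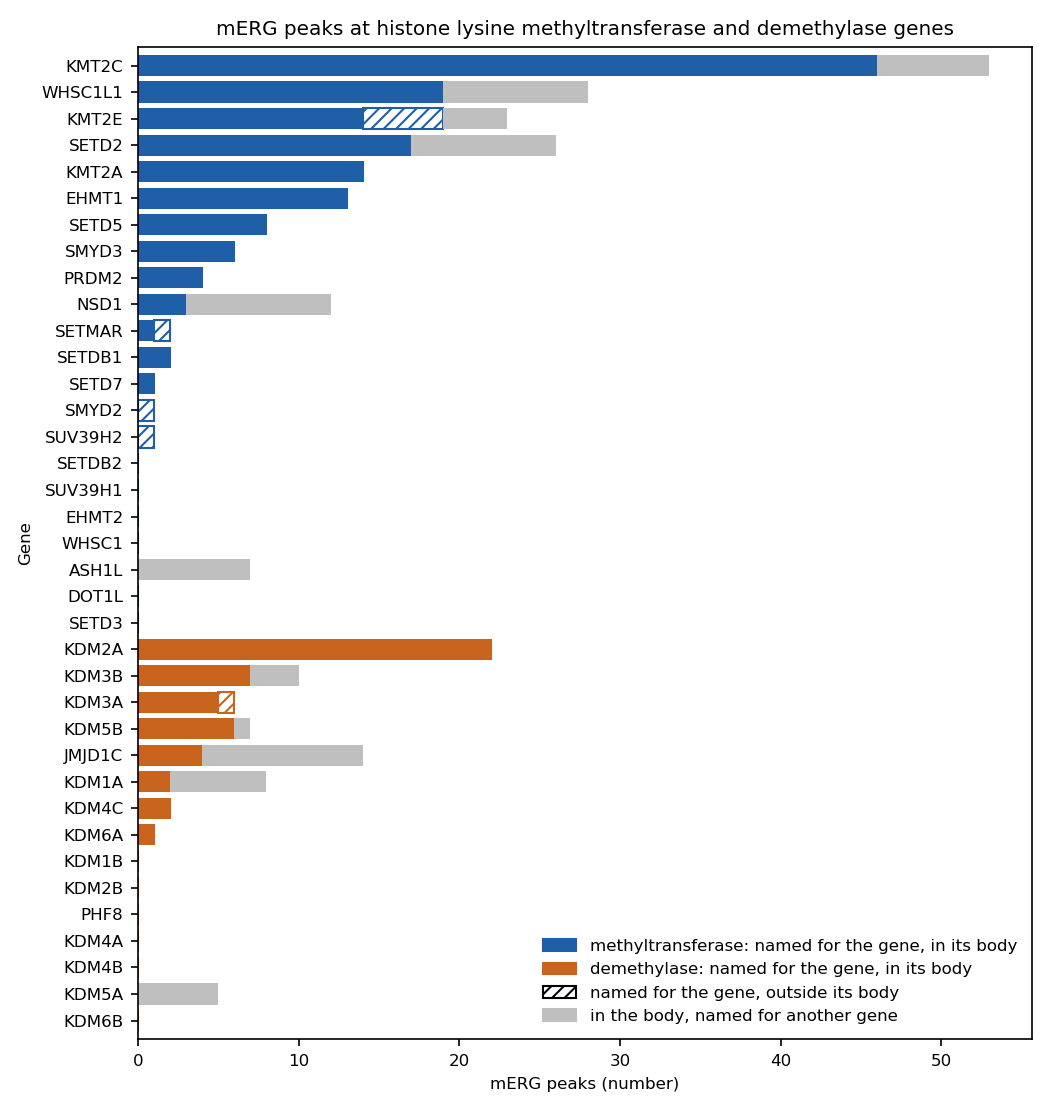
Number of mERG peaks (x axis) at each of the 37 genes (y axis), writers in blue and erasers in orange; hatched parts are peaks named for the gene that lie outside its body, and grey parts are peaks in the body that the list named for another gene. KMT2C has 46 named peaks, and the bars of ASH1L (7) and KDM5A (5) are grey throughout.

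Among the erasers, KDM2A had the most peaks and the strongest. KDM2A removes methyl groups from H3K36 and binds CpG islands. Its 22 peaks had scores of 33.4 to 464.8 with a median of 104.4, and the strongest, in intron 2, ranked the gene 6th by score among the 4088 bound protein-coding genes. The peaks were spread over the gene, with 8 in intron 2 and 7 in intron 5, and 21 of the 22 were at least 1 kb wide. Of the 22, 13 were upstream of the TSS to which the list measured them, an internal start of KDM2A, so that they still lay within the gene. KDM2B, its closest relative, had no peak.

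The JmjC demethylases of H3K9 other than the KDM4 genes were bound in 3 of 4 cases, with 17 peaks. KDM3B had 7, with scores of 36.1 to 224.1 and a median of 78.7, of which 5 lay in intron 1. The strongest was chr5:137703626-137706421, and by score the gene was 21st among bound protein-coding genes. KDM3A, a coactivator of the androgen receptor, had 6 peaks with a highest score of 73.4. JMJD1C, of the same subfamily, had 4 peaks with scores of 38.3 to 44.5, all in intron 2. A further 10 peaks in its body were named for other genes, JMJD1C-AS1, MIR1296, NRBF2 and REEP3. PHF8 had none.

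The remaining erasers had few peaks. KDM5B, a demethylase of H3K4, had 6 with a highest score of 49.2, of which 5 lay in intron 1. Its relative KDM5A was named by none, although 5 peaks with scores of 36.8 to 54.2 lay in the last part of the gene and were named for SLC6A13. KDM1A (LSD1), the flavin-dependent demethylase and a partner of the androgen receptor, had 2 peaks with scores of 36.9 and 43.8, and 6 more in its body named for MIR3115. KDM1B had none. Of the KDM4 genes, which act on H3K9 and H3K36, KDM4C had 2 peaks with scores of 33.8 and 34.0, and KDM4A and KDM4B had none. Of the demethylases of H3K27, which oppose EZH2, KDM6A had 1 peak with a score of 33.2 and KDM6B had none.

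**Figure D2:**
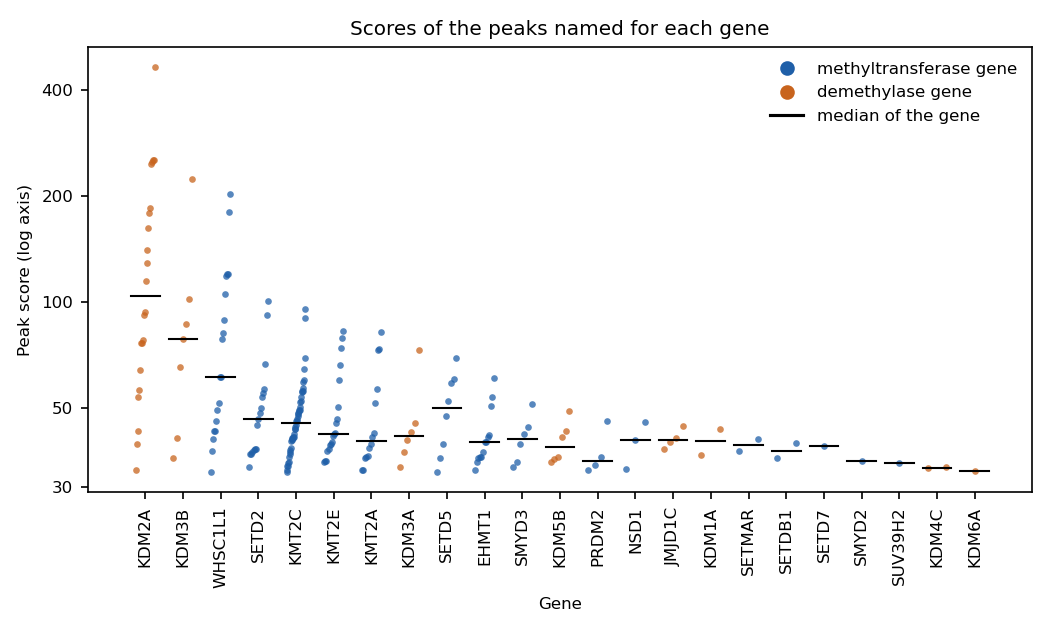
Score of every named peak (y axis, log scale) for the 23 bound genes (x axis, ordered by highest score); blue points are writers, orange points erasers, and the black line is the median of the gene. KDM2A reaches 464.8 with a median of 104.4, while the 1 peak of KDM6A has a score of 33.2.

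Bound enzyme genes had a median of 6 peaks, with an interval of 2 to 13 that reaches the median of 2 at other bound protein-coding genes. The median was 4 without KDM2A and WHSC1L1, and with peaks farther than 10 kb from the TSS left out it was 2, against 1 at other genes. Of the bound enzyme genes, 17.4% had a single peak, against 42.7%. Per 100 kb of gene there were 3.96 peaks (exact Poisson interval 3.44 to 4.54), against 1.14 at other protein-coding genes. The density was 5.15 at writers (4.38 to 6.03) and 2.30 at erasers (1.71 to 3.03). These intervals count peaks and leave out the spread between genes, so they cannot tell whether writers and erasers differ. The peaks were concentrated in few genes, since KMT2C, KDM2A and 1 of the genes with 19 peaks held 42.2% of them. Without KMT2C the density was 3.26 peaks per 100 kb over all enzyme genes and 4.04 at writers (3.32 to 4.86). Without KDM2A it was 1.38 at erasers (0.914 to 1.99), an interval that includes the 1.14 of other genes. This holds for peaks counted by name. By position, the eraser bodies held 74 peaks, 22 of them in KDM2A, and the erasers without KDM2A span 2.04 Mb. Other protein-coding genes held 12.9 peaks per Mb of body, so erasers without KDM2A lay closer to other genes by name than by position.

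The median score of the peaks differed less than their number. It was 43.7 at the enzyme genes and 40.9 at all other peaks, and 37.4% and 24.8% of peaks had a score of at least 50. The gap was wider among strong peaks, with a score of at least 100 in 9.71% of peaks at the enzyme genes and 2.14% of other peaks. Much of this came from KDM2A and WHSC1L1, which gave 11 and 6 of the 20 peaks with a score of at least 100. Without both genes the median score was 41.6 and the share with a score of at least 50 was 27.9%. Eraser peaks had a median score of 51.6 and writer peaks 42.9, but without KDM2A the erasers were at 41.1, and without WHSC1L1 the writers were at 41.8. The same genes set the width: 20.9% of the 206 peaks were at least 1 kb wide, against 5.60% of other peaks, and 6.67% without KDM2A and WHSC1L1.

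Nearly all of the peaks at these genes were intronic. Introns held 195 of 206 (94.7%, interval 90.7 to 97.0%), against 87.5% of other peaks, and the share was 94.9% at writers and 94.0% at erasers. Some of these introns belong to other genes, as in SRPK2 for KMT2E and PTPN14 for SMYD2. Over named peaks in the own gene body only, the share was 96.4% (92.8 to 98.3%). Intron 1 held 49.2% of the intronic peaks (42.3 to 56.2%), against 31.9% elsewhere, and 49.0% without KMT2C. Writers had 57.4% and erasers 23.4% of their intronic peaks in intron 1, and without KDM2A, which had none there, the erasers had 44% (26.7 to 62.9%). No peak was in a promoter-TSS region or within 1 kb of a TSS, where 0.487% of other peaks lay. The closest peak was that of SETD7, 2.54 kb from the TSS to which the list measured it, although 52.8 kb from the start of the gene.

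The median distance to the TSS was 33.4 kb (27.9 to 37.6) at the enzyme genes and 27.7 kb at other peaks. It was 36.5 kb at writers and 20.8 kb at erasers, and 27 kb over all enzyme genes without KMT2C. The closest peak of each bound gene had a median distance of 6.81 kb (4.18 to 14.4), against 12.1 kb at other bound genes. This is a minimum over the peaks of a gene, and bound enzyme genes had a median of 6 peaks against 2. Peaks of a gene were spaced a median of 3.02 kb apart, against 4.27 kb. Genes with many peaks give most of the spacings, and neither value was adjusted for the number of peaks.

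The name goes to the gene with the nearest TSS, which need not be the gene that holds the peak, so the peaks were also counted by position. At least 1 peak centre lay within the body of 23 of the 37 genes (62.2%), against 18.8% of all protein-coding genes. Of all protein-coding genes 95.3% had a position, and those without one counted as having no peak, which lowers the 18.8% somewhat. These were not the same 23: ASH1L and KDM5A entered, and SMYD2 and SUV39H2 left. Writers then stood at 63.6% and erasers at 60.0%. The 267 peaks in the bodies, 70 of them named for other genes, leaned to the start of the gene: 63.3% (57.4 to 68.9%) lay in the first 50% of the gene length, against 55.4% of body peaks at other protein-coding genes. The share was 66.8% in writers (59.9 to 73.1%) and 54.1% in erasers (42.8 to 64.9%), with intervals that overlap.

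The density around the genes was counted within 1 Mb on either side, leaving out the gene itself. The full width was the divisor also for EHMT1 and KDM5A, which lie within 1 Mb of a chromosome end. Their values around the gene are therefore too low. It had a median of 12.0 peaks per Mb around the bound genes and 3.25 around the 14 genes with no named peak, against 5.83 over the whole set of chromosomes. Of the 14, SUV39H1, KDM1B, PHF8 and KDM4B had no peak in this neighbourhood either. In contrast, KDM2B had no peak in a neighbourhood of 19.5 peaks per Mb. Chromosome X carries SUV39H1, PHF8 and KDM6A, and held 0.193 peaks per Mb.

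Over all 37 genes, the density was higher in the body than around it at 21, lower at 12, and 0 in both at 4. A gene with any peak in its body is likely to fall among the 21, and of the 12 with a lower density 10 had no peak in the body. EHMT1 had 51.8 peaks per Mb in its body and 1.00 around it, a value too low so near the chromosome end. KMT2A had 154.9 and 6.50. For KDM2A the values were 158.5 and 39.5, and for KDM3B 118.6 and 64.0, so the strongest erasers lay in regions dense in peaks. SETD7 and KDM4C had peaks in the body but fewer per Mb than around it. The bodies of other protein-coding genes held 12.9 peaks per Mb, and the part of the local peak density in the values of single genes was not tested.

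GGAA on either strand was found within 100 bp of the centre in 77.7% of their peaks (71.5 to 82.8%), and in 83.9% of other peaks. Whether the interval reached the 83.9% of other peaks depended on the setting. It stayed below that share without chromosomes 16 and X (77.6%, 71.4 to 82.7%), a setting that removed only 1 of the 206 peaks. It also stayed below it without KMT2C (78.1%, 71.1 to 83.8%). The same held for named peaks in the own gene body only (77.7%, 71.4 to 82.9%). The interval reached 83.9% without KDM2A and WHSC1L1 (79.4%, 72.6 to 84.9%) and with the listed symbols alone (79.1%, 72.8 to 84.4%). Among peaks with a score of at least 50, the share was 84.4% at the enzyme genes and 84.3% elsewhere. In windows of the same length 2000 bp away, GGAA was found in 76.5% at the enzyme genes (72.1 to 80.3%) and in 79.6% at other peaks, a difference within counting error. Writers had 77.6% at the centres (70.4 to 83.4%) and 73.7% in the windows away from them (68.6 to 78.3%). Erasers had 78.0% (64.8 to 87.2%) and 85.0% (76.7 to 90.7%), and within each set the 2 intervals overlap. At the centres of peaks with a score of at least 50, the share was 80.8% at writers (68.1 to 89.2%) and 92.0% at erasers (75.0 to 97.8%). Some of the windows away from the centres lie inside the same peak where it is wide, as at KDM2A. The longer ETS core CCGGAAGT was searched on both strands, allowing 1 mismatch as long as GGAA was intact, and was found in 7 of 206 windows (3.40%, 1.66 to 6.85%), against 2.61% of other peaks. It was no more frequent at the centres than 2000 bp away, where it was found in 3.88% of windows at the enzyme genes and in 2.97% at other peaks. Of the 7 matches, each with 1 mismatch, those at KDM2A and KMT2A shared the same 8 letters and are shown with 6 bases on either side and the matched letters in capitals. The KDM2A match is chr11:66917651-66917670 on the plus strand and the KMT2A match chr11:118340981-118341000 on the minus strand. They were picked for print after the matches were seen.
KDM2A: tttagcCCGGAAATatgcat
KMT2A: tcctgcCCGGAAATacatca
The others were at PRDM2, with 2, and at SMYD3, EHMT1 and WHSC1L1. A match describes the letters in the window and is not a measured binding site.

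Related genes outside the list had lower bound shares than the 37, with intervals that overlap theirs. The 37 genes and the related lists were chosen with earlier results known, so this contrast is not independent of the choice. Of 18 other lysine methyltransferases, 6 had a peak (33.3%): EZH2, the writer of H3K27, had 6 peaks with a highest score of 68.7, SUV420H1 had 5 with a highest score of 343.3, SETD4 had 3, and MECOM, EZH1 and SETD9 had 1 each. Of 8 other demethylases, 3 were bound, PHF2 with 2 peaks and JHDM1D and MINA with 1 each. Partners of the enzymes were bound in 5 of 13 cases, NCOA6 with 11 peaks, MLLT10 with 10, RCOR1 with 3, PSIP1 with 2 and MLLT3 with 1, while the core subunits WDR5, RBBP5, ASH2L and DPY30 of the H3K4 complexes had none. The 3 shares lay between 33.3% and 38.5%, against 62.2% for the 37 genes. These genes were also shorter, with median lengths of 43.3 kb for the methyltransferases, 28.2 kb for the demethylases and 58.0 kb for the partners. The bound share of protein-coding genes averaged over their length deciles was 24.2%, 21.4% and 28.4% in the same order, against 32.7% for the 37.

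Of 23 acetyltransferases and deacetylases, 9 were bound (39.1%): NCOA3 and KAT6A with 7 peaks each, EP300 and HAT1 with 3, HDAC2 and KAT6B with 2, and NCOA1, HDAC1 and CREBBP with 1. Of 9 arginine methyltransferases, 2 were bound (22.2%), PRMT3 with 3 peaks and PRMT2 with 1, a share close to the 20.4% of all protein-coding genes. The share averaged over length deciles in the same way was 27.9% for the acetylation enzymes and 23.9% for the arginine methyltransferases. The intervals of these small lists were wide, 22.2 to 59.2% for the acetylation enzymes, which overlaps that of the 37 genes.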

How the data were processed

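The mERG ChIP-seq of VCaP cells gave 1 list of peaks, called by the authors from 1 mERG library and 1 control library. The header of the list names MACS on hg19 and HOMER annotation. The submitters' processing notes also name Bowtie2 and Picard, and versions and the calling threshold are not given in the sources used here. The score was deposited as the log10 MACS p-value multiplied by -10, with no scaling to read depth, which is unknown. Distances to the TSS, location classes and gene names are the authors' HOMER values.

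Genes of the list were matched to Entrez identifiers through RefSeq symbols and synonyms (GRCh38.p14, names only). The background was 20037 RefSeq protein-coding genes, and 95.3% of them had a position and length in GENCODE release 44 on GRCh37. Sequence came from the GRCh37 genome, whose chromosomes hold 18037 of the 18070 peaks, with 0 peaks past a chromosome end. Motif windows of 201 bp were centred on the peak centre, since the list has no summit. Shares have Wilson intervals, the difference of shares a Newcombe interval, densities exact Poisson intervals and medians order-statistic intervals, all at 95%. No test was made, because there is no replicate and the genes were listed with results in view. The motif search and the counting were tested on simulated data.

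The members and lists were chosen with earlier results of these data known. Named in full were the 8 genes with the most peaks and the 5 with the highest score; sequences were shown for the strongest peak of the 3 writers and 3 erasers with the highest score, leaving out chromosome 8, and 2 of these 6 sequences are not reported here; other genes were given by counts and ranges, and related genes with a peak by name. The density around genes, the peaks in ASH1L and KDM5A and the positions of the motif matches were looked at after the data were seen. Alternatives kept stronger peaks, peaks near the TSS, peaks in gene bodies or fewer chromosomes or genes. Tables were handled with pandas 2.3.3 and NumPy 2.4.6 in Python 3.11.15, sequences with pysam 0.24.0, intervals with SciPy 1.17.1 and figures with Matplotlib 3.10.9.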

Additional observations from a re-analysis of the deposited data

How the results depend on the processing

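Of 48 values under other settings, 30 were within the interval of the main value, and 18 moved outside it. Of 32 more under settings added after seeing the data, 29 stayed within it and 3 moved. The difference between writers and erasers had the same sign under each of its 8 settings, with 0 inside each interval. No paired analysis was possible because 1 mERG library was set against 1 control, with no numbered replicates.

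Settings that keep fewer peaks lower counts by construction. With the stronger 50% of peaks, 43.2% of the genes and 45.5% of the writers were bound, with 2.46 peaks per 100 kb. With scores of at least 50, these were 29.7%, 36.4% and 1.48, erasers were at 20%, the median highest score was 83.2, the median distance 27.7 kb, the intron share 98.7% and the GGAA share 84.4%. With peaks within 10 kb of the TSS, 40.5% of the genes and 45.5% of the writers were bound, and 1773 of 20000 other protein-coding genes had such a peak. The score settings are given without the shares of other genes, so no excess over other genes can be read from them. Without KMT2C, the median distance was 27 kb and the density 3.26 per 100 kb. Without KDM2A and WHSC1L1, added after seeing the data, it was 3.33; in the same way, writers without KMT2C were at 4.04 and erasers without KDM2A at 1.38. With the median peak in place of the strongest, the median score was 40.5. The ETS core in place of GGAA gave 3.40%, and GGAA within 50 bp gave 56.8%. The cause of the changes in distance, intron share and GGAA share was not tested.

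A single list with no replicate and unknown depth limits every value, and signal below the calling threshold was not seen. Naming by the nearest TSS moved 70 peaks in these genes to other names.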
